A study of Mus musculus with 6 samples.

Results

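The 10 genes described here encode α- and β-tubulin isotypes and were taken by symbol from the table of counts per gene: the α-tubulin genes Tuba1a, Tuba1b, Tuba1c and Tuba4a, and the β-tubulin genes Tubb2a, Tubb2b, Tubb3, Tubb4b, Tubb5 and Tubb6. They are 10 of the 48587 genes listed, and 9 of them passed the filter on low counts that left 13166 genes for testing. Tubb3 did not pass. They were chosen by gene family, with earlier results of these data known.

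Tubulin is a dimer of 1 α and 1 β subunit, and dimers join head to tail into the wall of the microtubule, the filament of the mitotic spindle, of intracellular transport and of cilia. The isotypes of each subunit are nearly the same protein and differ most at the acidic tail that points away from the microtubule surface, where enzymes remove or restore the last residue or add chains of amino acids. Cells also hold the level of tubulin mRNA in check: when free dimers are in excess, TTC5 binds the first residues of nascent tubulin on the ribosome and recruits factors that degrade the mRNA being translated.

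RNA was sequenced from 4T1 cells, a line of mouse mammary gland carcinoma cells. In 3 libraries the cells carried cDNA of FLAG-tagged METTL7A1 in the vector pBICEP-CMV-2, in which a viral promoter drives it (METTL7A1). That transfection was stable and kept under G418. In 3 libraries the cells were stably transfected with the empty vector (mock). Mettl7a1 encodes a putative methyltransferase, and the comparison asks how its expression changes the RNA of cells that hardly make it. The replicates are described as biological triplicates, and no source used here says whether they came from separate transfections, from pools or from 1 clone, so p values measure the spread between these libraries, and a difference between the 2 cell populations that does not come from the cDNA cannot be told apart from one that does.

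Libraries held 18386780 to 28459338 counts, of which 31535 to 57636 fell on the 10 tubulin genes, and a gene with 3 counts had 0.102 to 0.164 cpm (counts set to 1 library size by TMM factors). Mettl7a1 had 6355, 11358 and 10398 counts in the METTL7A1 libraries and 30, 30 and 29 in the mock libraries, a log2 fold change (METTL7A1 against mock, as throughout) of 8.17. Correlations of log2 cpm between libraries were 0.989 to 0.996 within groups and 0.961 to 0.967 between them. The transcriptome differed broadly: at an adjusted p under 0.05 (edgeR's quasi-likelihood test over all genes tested), 42.1% of genes were called, 21.1% higher and 21.0% lower in METTL7A1 cells, and the levels of the groups did not overlap for 51.6%. The median log2 fold change of all genes tested was -0.03.

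The ends of the coding sequences are shown first because the last codon sets whether an α-tubulin tail ends in the tyrosine that enzymes remove and restore. The last 48 bases of the coding sequences of Tuba1c and Tuba4a, stop codon included, are given 5′ to 3′ on the coding strand of the build mm10 (GENCODE M21 transcripts), with the last codon before the stop in capitals. Tuba8 is no member but is shown because its level differed between the groups.
Tuba1c (chr15:99037962-99038009, plus strand): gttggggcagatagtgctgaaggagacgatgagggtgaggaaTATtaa
Tuba4a (chr1:75215622-75215669, minus strand): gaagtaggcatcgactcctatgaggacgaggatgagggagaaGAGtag
Tuba8 (chr6:121226032-121226079, plus strand): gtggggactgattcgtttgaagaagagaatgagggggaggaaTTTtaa
The tail of Tuba1c ends in a tyrosine codon, the residue that carboxypeptidases of the vasohibin family remove and that the ligase TTL puts back. That of Tuba4a ends in a glutamate codon, so its protein is made without the tyrosine, and that of Tuba8 ends in a phenylalanine codon. Tuba1a and Tuba1b, whose ends are not printed, were 98.3% identical over the whole coding sequence.

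Among the β-tubulin genes the pair Tubb2a and Tubb2b is shown, since the level of one differed far more between the groups than that of the other. Capitals mark the bases at which they differ.
Tubb2a (chr13:34074468-34074515, minus strand): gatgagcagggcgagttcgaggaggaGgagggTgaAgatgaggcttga
Tubb2b (chr13:34127471-34127518, minus strand): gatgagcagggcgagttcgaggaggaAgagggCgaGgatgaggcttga
All 3 differences lie at the third position of a codon. Over the whole coding sequence 47 bases differed (96.5% identical). At the other end of the coding sequence, the codons that TTC5 reads as protein follow the start codon: they are in capitals in atgCGTGAGTGC, the first 12 bases of Tuba1c, in atgCGCGAGATC of Tubb2a, in atgCGAGAGATC of Tubb2b and in atgAGGGAAATC of Tubb5.

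Such likeness bears on how reads could be assigned. Of the stretches of 100 bases in each gene's transcripts, 65.8% of Tuba1a, 65.2% of Tuba1b and 46.0% of Tuba1c also occurred in the transcript of another gene. The shares were 36.9% for Tubb2a, 26.0% for Tubb2b and 21.0% for Tubb4b, and 0 for Tuba4a, Tubb3, Tubb5 and Tubb6. How reads that match several genes were counted is not given in the sources used here, so the split among Tuba1a, Tuba1b and Tuba1c and that between Tubb2a and Tubb2b are uncertain. The pseudogene Tubb4b-ps1 shared most of those of Tubb4b (19.7%) and had at most 9 counts in any library.

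Levels of different genes can be compared only per length, so cpm was divided by the exon length in kilobases (cpm per kb). In both groups the order from the highest level was Tubb5, Tubb4b, Tuba1b, Tubb6, Tuba1a, Tuba1c, Tuba4a, Tubb2a, Tubb2b and Tubb3. Tubb5, the common β-tubulin of dividing cells, had 336 ± 33.7 cpm per kb in METTL7A1 and 380 ± 47.4 in mock cells (SD, n = 3 here and below). Tubb4b, another broadly expressed β-tubulin, followed with 147 ± 14.3 and 204 ± 24.8 cpm per kb, and Tuba1b, a main α-tubulin of cultured cells, with 129 ± 17.4 and 145 ± 20.4. In METTL7A1 cells the ranges of Tubb4b and Tuba1b overlapped, as did those of Tubb6 and Tuba1a, and in mock cells those of Tubb6 and Tuba1a and those of Tuba1a and Tuba1c. The remaining neighbours in the order were apart in all 3 libraries of a group.

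**Figure D1:**
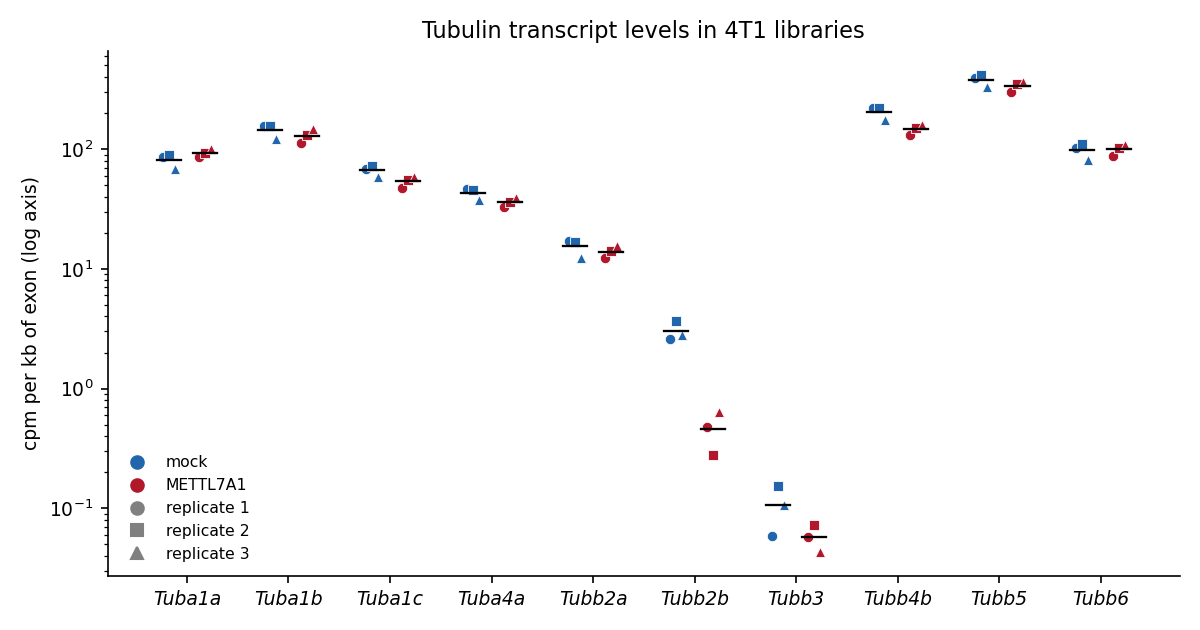
Level of the 10 tubulin genes in cpm per kilobase of exon (log axis), 1 point per library, with METTL7A1 and mock libraries in different colours and bars at the group means. The order of the genes is the same in both groups, and the groups stand apart for Tubb2b and Tubb4b.

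The makeup of the tubulin pool was described as each gene's share of the counts of the 10 genes in a library, a measure that does not depend on the scaling between libraries. Tubb5 held close to the same part of the pool in all libraries, 46.5, 47.1 and 46.2% in METTL7A1 and 45.8, 46.7 and 46.6% in mock cells. Tubb4b held 12.4, 12.2 and 12.3% in METTL7A1 and 15.2, 14.7 and 15.1% in mock cells, a mean difference of -2.71 percentage points. Tuba1a held 8.37, 7.88 and 7.88% in METTL7A1 and 6.16, 6.19 and 6.07% in mock cells, a difference of 1.90 points. The Tubb4b shares of the METTL7A1 libraries were all below, and the Tuba1a shares all above, those of the mock libraries, while the Tubb5 shares overlapped.

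Tubb6, a β-tubulin of many non-neuronal cells, held 9.10, 9.12 and 9.15% in METTL7A1 and 7.85, 8.11 and 7.62% in mock cells (difference 1.26 points), with no overlap. Tuba1c held 5.53, 5.59 and 5.55% against 5.91, 6.03 and 6.19% (difference -0.49 points), lower in each METTL7A1 library. Tubb2b held 0.0539, 0.0278 and 0.0586% against 0.220, 0.295 and 0.290% (difference -0.22 points), again with no overlap. The shares thus stood apart between the groups for 5 of 10 genes, 2 above in METTL7A1 cells and 3 below. Over all genes tested, levels, which are another measure than shares, did not overlap between the groups for 51.6%. Those of Tuba1b (11.8 ± 0.439% against 11.6 ± 0.341%), Tuba4a (5.39 ± 0.108% against 5.64 ± 0.183%), Tubb2a (1.16 ± 0.0183% against 1.11 ± 0.0576%), Tubb5 and Tubb3 overlapped. With 3 libraries a group the smallest two-sided p of an exact permutation test is 0.10, so no share was tested, and shares of 1 pool are not independent of each other. The widest 95% Wilson interval of a share, which covers counting error only, reached 0.550 points to either side for Tubb5 and 0.364 for Tubb4b.

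**Figure D2:**
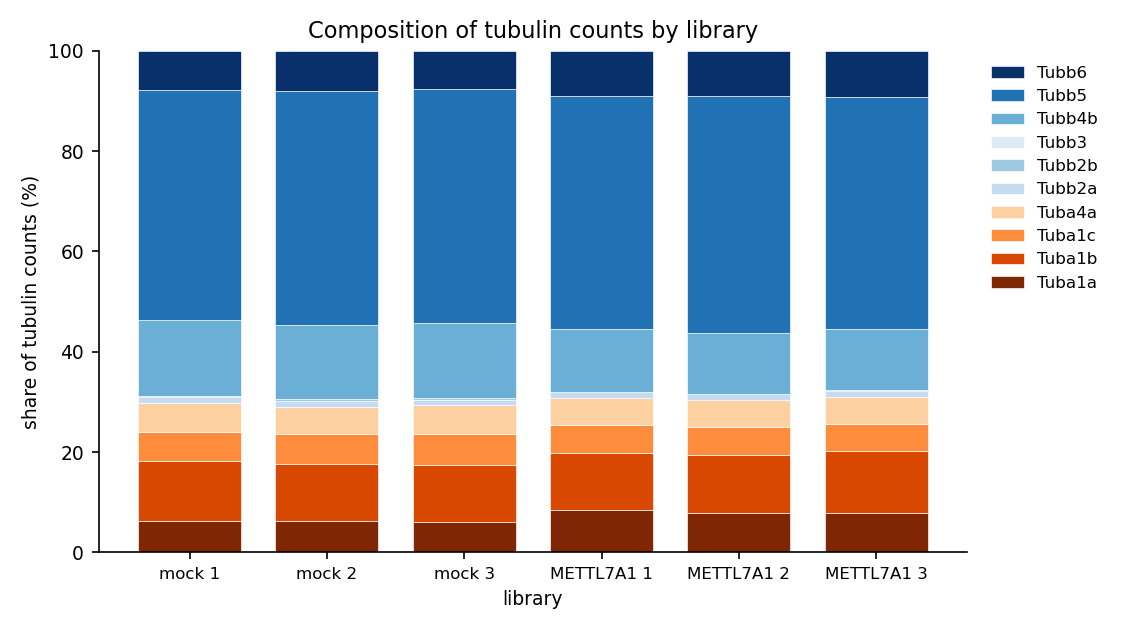
Share of each tubulin gene in the counts of the 10 genes, as stacked bars that fill 100% for each of the 6 libraries. Tubb5 takes 45.8 to 47.1% of every bar, the Tubb4b segment is thinner in the 3 METTL7A1 libraries and the Tuba1a and Tubb6 segments are thicker.

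**Figure D3:**
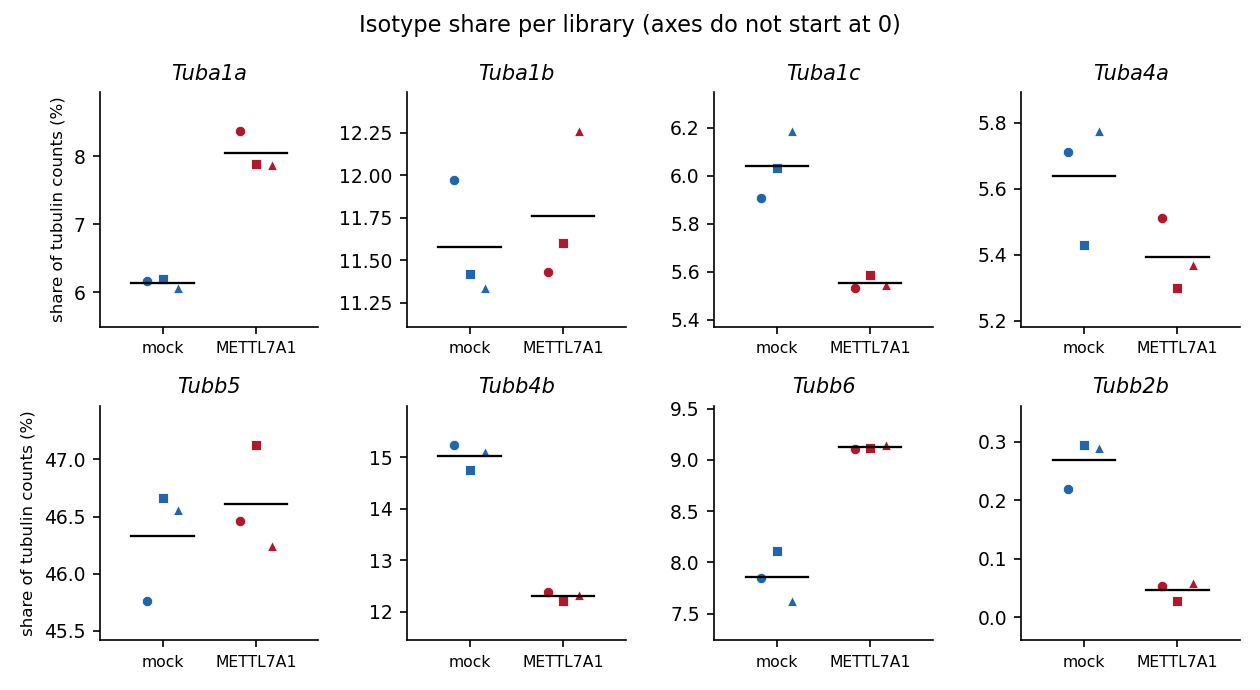
Share of tubulin genes in the counts of the 10 genes (percent, a panel with its own axis per gene shown), 1 point per library. The METTL7A1 points lie apart from the mock points for Tuba1a, Tuba1c, Tubb2b, Tubb4b and Tubb6, and the groups overlap in the other panels.

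The 4 α-tubulin genes together made 30.8, 30.4 and 31.1% of the counts in METTL7A1 and 29.8, 29.1 and 29.4% in mock cells, a difference of 1.36 points with no overlap. The dimer holds 1 subunit of each kind, but counts are of RNA and follow exon length, and per kilobase the α share was 34.3 ± 0.341% against 32.4 ± 0.303%. Among α-tubulin counts alone, Tuba1a held 26.2 ± 0.901% in METTL7A1 and 20.9 ± 0.347% in mock cells, and Tuba4a, the isotype that ends in a glutamate codon, 17.5 ± 0.300% and 19.2 ± 0.491%. Among β-tubulin counts alone, Tubb5 held 67.3 ± 0.334% and 65.6 ± 0.416%. On this narrower base the groups stood apart for Tuba4a and Tubb5 as well.

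Ratios between pairs of α-tubulin genes or pairs of β-tubulin genes were computed as well. For every 100 counts of Tuba1b there were 73.2, 67.9 and 64.3 counts of Tuba1a in METTL7A1 and 51.5, 54.2 and 53.5 in mock cells. For every 100 counts of Tubb5 there were 26.7, 25.9 and 26.7 of Tubb4b in METTL7A1 and 33.3, 31.6 and 32.4 in mock cells. For every 100 of Tubb2a there were 4.70, 2.43 and 4.98 of Tubb2b in METTL7A1 and 18.7, 26.5 and 27.4 in mock cells. In none of these ratios did the groups overlap. Each sets a gene whose share stood apart against one whose share overlapped, so the ratios restate the shares and add no separate support. The splits of Tuba1a from Tuba1b and of Tubb2b from Tubb2a are also uncertain because of shared sequence.

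Levels, as opposed to shares, were then compared between the groups for each gene. Of the 9 genes tested, 4 were lower in METTL7A1 cells at an adjusted p under 0.05 (Tubb2b, Tubb4b, Tuba1c and Tuba4a) and none was higher. Among all genes tested 42.1% were called in either direction and 21.0% lower. The median log2 fold change of the 9 genes was -0.18. At the thresholds of the study (adjusted p under 0.01 and a log2 fold change over 1.5 in either direction), which 2.48% of all genes met and 0.866% met as lower, 1 gene was called, Tubb2b. The levels of the groups did not overlap for 2 of 10 genes, Tubb2b and Tubb4b, against 51.6% of all genes tested.

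**Figure D4:**
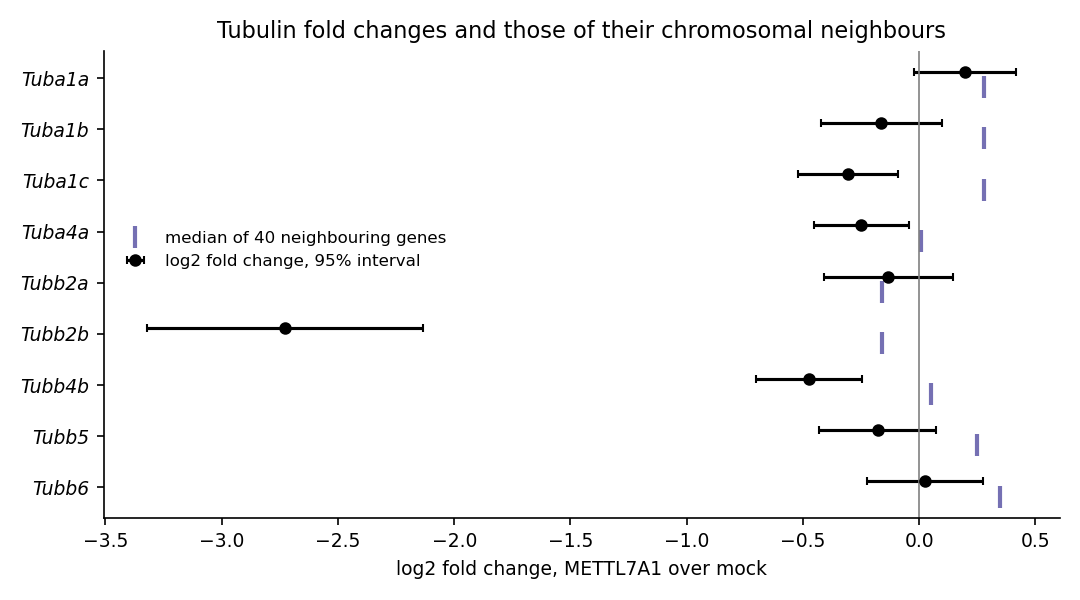
Log2 fold change of the 9 tested tubulin genes, METTL7A1 against mock, with 95% intervals. A tick marks the median for the 40 expressed genes that lie closest on the chromosome. All points are drawn alike, and the adjusted p was under 0.05 for Tubb2b, Tubb4b, Tuba1c and Tuba4a. Tubb2b lies at -2.73, far from the other 8, which lie between -0.47 and 0.20.

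Tubb2b, a β-tubulin best known from developing neurons, had the largest difference of the 10 genes. It had 17, 16 and 30 counts in METTL7A1 and 92, 170 and 134 in mock libraries, or 0.916, 0.542 and 1.22 cpm against 5.03, 7.02 and 5.39. Every METTL7A1 library was below every mock library, and the mean was 6.52-fold lower (0.891 ± 0.338 against 5.81 ± 1.06 cpm). The log2 fold change was -2.73 (SE 0.27, 95% interval -3.32 to -2.13, adjusted p = 2.16e-05). Tubb2b was called in all 15 alternative analyses at an adjusted p under 0.05. It passed the filter of 1 cpm mainly through the mock libraries, where it was higher. In the fit that required at least 10 counts in every library its log2 fold change was -2.73 (adjusted p = 2.00e-05).

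Its near copy Tubb2a, 49.0 kb away on the same strand (chr13:34074301-34078008, Tubb2b at chr13:34127008-34130354), had 19.5, 22.3 and 24.4 cpm in METTL7A1 and 26.8, 26.5 and 19.7 in mock cells. These values overlapped, and the log2 fold change of -0.13 (SE 0.13, 95% interval -0.41 to 0.15) did not pass the test (adjusted p = 0.433). Tubb3, the β-tubulin used as a marker of neurons (chr8:123411424-123422015), had 2, 4 and 2 counts in METTL7A1 and 2, 7 and 5 in mock libraries, too few to test or to give a fold.

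Tubb4b (chr2:25222160-25224702, minus strand), a β-tubulin also used in cilia, had 211, 238 and 256 cpm in METTL7A1 and 349, 350 and 281 in mock cells. The highest METTL7A1 library was below the lowest mock library, with means of 235 ± 22.9 and 327 ± 39.6 cpm. The log2 fold change was -0.47 (SE 0.10, 95% interval -0.70 to -0.25, adjusted p = 0.00381) and Tubb4b was called in all 15 alternative analyses, with an adjusted p of at most 0.0263. It overlaps Fam166a on the other strand, which had at most 49 counts in a library.

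Tubb5 (chr17:35833921-35838306, minus strand), the most abundant member, had 790, 920 and 961 cpm in METTL7A1 and 1048, 1108 and 867 in mock cells. The groups overlapped through the third mock library, and the log2 fold change of -0.18 (SE 0.11, 95% interval -0.43 to 0.07) did not pass the test (adjusted p = 0.236). Tubb6 had 155, 178 and 190 cpm in METTL7A1 and 180, 193 and 142 in mock cells, with a log2 fold change of 0.02 (SE 0.11, 95% interval -0.23 to 0.27, adjusted p = 0.883). Its level therefore overlapped between the groups while its share of the pool did not.

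Among the α-tubulin genes the 3 of the Tuba1 cluster lie side by side on chromosome 15. Tuba1a (chr15:98949841-98953551, minus strand), the α-tubulin prominent in neurons, had 142, 154 and 164 cpm in METTL7A1 and 141, 147 and 113 in mock cells. Tuba1b (chr15:98931425-98934565, minus strand) had 194, 226 and 255 cpm in METTL7A1 and 274, 271 and 211 in mock cells. Both genes overlapped between the groups and neither passed the test, with log2 fold changes of 0.20 (SE 0.10, 95% interval -0.02 to 0.42, adjusted p = 0.135) and -0.16 (SE 0.12, 95% interval -0.42 to 0.10, adjusted p = 0.302).

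Tuba1c (chr15:99029891-99038105, plus strand) had 94.0, 109 and 115 cpm in METTL7A1 and 135, 143 and 115 in mock cells. Its log2 fold change of -0.31 (SE 0.10, 95% interval -0.52 to -0.09) passed the test (adjusted p = 0.0267), although the highest METTL7A1 and the lowest mock library had nearly the same level. The call was lost when METTL7A1 library 1 (adjusted p = 0.0621), METTL7A1 library 2 (adjusted p = 0.0627), mock library 1 (adjusted p = 0.106) or mock library 2 (adjusted p = 0.0962) was left out.

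Tuba4a (chr1:75214228-75219294, minus strand) had 93.7, 103 and 112 cpm in METTL7A1 and 131, 129 and 108 in mock cells, and the groups overlapped. Its log2 fold change of -0.25 (SE 0.09, 95% interval -0.45 to -0.05) passed the test narrowly (adjusted p = 0.0492), and 11 of 15 alternative analyses no longer called it. Among them were the fits that left out METTL7A1 library 1 (adjusted p = 0.121), METTL7A1 library 2 (adjusted p = 0.118), mock library 1 (adjusted p = 0.206) and mock library 2 (adjusted p = 0.137). With the replicate number as a block its adjusted p was 0.0969. Tuba4a overlaps Stk16 on the other strand, which had at most 1550 counts in a library.

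Summed over the 10 genes, tubulin RNA came to 1699, 1951 and 2077 cpm in METTL7A1 and 2289, 2374 and 1861 in mock cells, so that the groups overlapped (1909 ± 193 against 2175 ± 275 cpm, a log2 ratio of -0.19). In bulk RNA, fewer cells with tubulin RNA and less of it per cell cannot be told apart. The third mock library and the first METTL7A1 library were the lowest of their groups for every gene tested except Tubb2b. These 2 libraries also had the fewest counts of their groups for AY036118, a transcript of the ribosomal RNA repeat (92294 against 732522 and 1105862 counts in METTL7A1, and 222410 against 2665015 and 1260900 in mock libraries), and its part in the levels was not tested. Shares within the tubulin pool are computed without it.

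The chromosomal neighbourhoods of several members also differed between the groups. Among all genes tested 21.1% were called higher and 21.0% lower. Around the Tuba1 cluster, 45 genes tested within 2 Mb had a median log2 fold change of 0.29, with 25 called higher and 2 lower. That region holds Mettl7a1 itself, 1351 kb from Tuba1a. Around Tubb5, 88 genes had a median of 0.22 (40 higher, 6 lower), and around Tubb6, 19 genes had a median of 0.39 (14 higher, none lower). Near the other genes tested the medians were small, 0.07 for 26 genes around Tuba4a, 0.04 for 54 around Tubb4b and -0.05 for 14 around Tubb2b.

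Set against the median of their 40 nearest expressed genes, Tuba1b (-0.44, adjusted p = 0.0157) and Tubb5 (-0.43, adjusted p = 0.0156) were lower in METTL7A1 cells, while Tuba1a lay at -0.08 (adjusted p = 0.579) and Tubb6 at -0.32 (adjusted p = 0.0508). Tubb4b (-0.52) and Tubb2b (-2.57) stayed called. By this measure 5 of the 9 genes were lower (Tuba1b, Tuba1c, Tubb2b, Tubb4b and Tubb5), where 31.4% of all genes were called and 13.4% were lower. The part of the neighbouring genes' shift in the tubulin levels was not tested.

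The other tubulin genes and the proteins that make, mark or hold microtubules were taken from lists chosen by function. The calls in each list are to be read beside those over all genes tested, 21.1% higher and 21.0% lower. Of the 10 other tubulin genes listed 5 were tested, and 1 was higher (Tuba8) and 1 lower (Tube1). Tuba8, an α-tubulin known from testis and muscle, had 32, 93 and 76 counts in METTL7A1 and 17, 25 and 18 in mock libraries, or 2.65 ± 0.804 against 0.895 ± 0.156 cpm. All METTL7A1 libraries were above all mock libraries, and the log2 fold change was 1.59 (SE 0.28, adjusted p = 0.00111). It fell under the filter on low counts, and so was not tested, when any METTL7A1 library was left out. For every 100 counts of Tuba4a there were 1.84, 3.04 and 2.76 of Tuba8 in METTL7A1 and 0.711, 0.800 and 0.674 in mock cells, so Tuba8 remained a small part of α-tubulin RNA. Tube1, the ε-tubulin of centrioles, had 318, 473 and 324 counts in METTL7A1 and 402, 459 and 558 in mock libraries, with a log2 fold change of -0.46 (SE 0.11, adjusted p = 0.00821), and lay at 0.06 relative to its 40 neighbours. Tubg1, the γ-tubulin that nucleates microtubules, had a log2 fold change of -0.15 (SE 0.09, adjusted p = 0.206).

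Of the 6 genes listed for tubulin mRNA autoregulation 2 were higher and 1 lower, where 21.1% of all genes tested were higher and 21.0% lower. Ttc5, which binds nascent tubulin, was lower (log2 fold change -0.28, SE 0.09, adjusted p = 0.0335), a call that was lost without METTL7A1 replicate 2 (adjusted p = 0.121) or 3 (adjusted p = 0.122), without mock replicate 1 (adjusted p = 0.0778) or 3 (adjusted p = 0.0921), with DESeq2 (adjusted p = 0.0546), without a filter on low counts (adjusted p = 0.112), with the replicate block (adjusted p = 0.0708) and under the neighbour offset, where it lay at 0.02. Scaper, which links TTC5 to the deadenylase complex, was higher (log2 fold change 0.55, SE 0.13, adjusted p = 0.00547). The 22 folding genes, chiefly subunits of the chaperonin and prefoldin and the tubulin cofactors, were all tested, and 2 were higher and 4 lower with a median log2 fold change of 0.03. These 6 calls became 2 without METTL7A1 replicate 2 or mock replicate 2 and 1 without mock replicate 1. Over all genes, 5537 calls became 3761, 4602 and 4251 in these fits, in the same order.

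Of 18 tested genes for enzymes that modify tubulin, 6 were higher and 3 lower, with a median of 0.12. Among all genes tested 42.1% were called, 21.1% higher and 21.0% lower. The 6 higher calls became 3 without METTL7A1 replicate 2, METTL7A1 replicate 3 or mock replicate 3. Over all genes, 5537 calls in either direction became 3761, 4555 and 5753 in these fits, in the same order. Atat1, the acetyltransferase of α-tubulin, was higher (log2 fold change 0.54, SE 0.15, adjusted p = 0.0128), and Ttll5, a ligase that adds glutamate to tails, was lower (-0.72, SE 0.10, adjusted p = 1.77e-04). The 9 genes of the γ-tubulin ring complex and its partners split evenly, 3 higher and 3 lower. Nedd1, which brings the complex to the spindle, was among the higher genes (0.61, SE 0.07, adjusted p = 4.48e-05). The 6 calls of this list became 3 without METTL7A1 replicate 2 or mock replicate 1, where 3761 and 4251 of all genes were called.

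Among 17 tested stabilisers and tip proteins 3 were higher and 4 lower. These calls came to 3 in all without METTL7A1 replicate 2 or 3 or mock replicate 2 and 4 without mock replicate 1. Over all genes, 5537 calls became 3761, 4555, 4602 and 4251 in these fits, in the same order. Mapre3, a protein of growing microtubule ends, was among the higher (0.98, SE 0.17, adjusted p = 7.44e-04). Among 10 tested destabilisers 2 were higher and 2 lower, with Katna1, the catalytic subunit of the severing enzyme katanin, among the lower (-0.53, SE 0.07, adjusted p = 1.77e-04). Relative to their 40 nearest expressed genes, Atat1 (0.29), Ttll5 (-0.24), Nedd1 (0.15) and Katna1 (-0.15) no longer passed the test, while Tuba8, Scaper and Mapre3 did. Over all genes tested 42.1% were called, and in none of these 7 lists did all calls go 1 way. With the neighbour offset the calls came to 1 in the ring complex, 1 in autoregulation, 3 in folding, 4 in modification, 3 among stabilisers and 4 among destabilisers. Under that offset 31.4% of all genes tested were called.

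**Figure D5:**
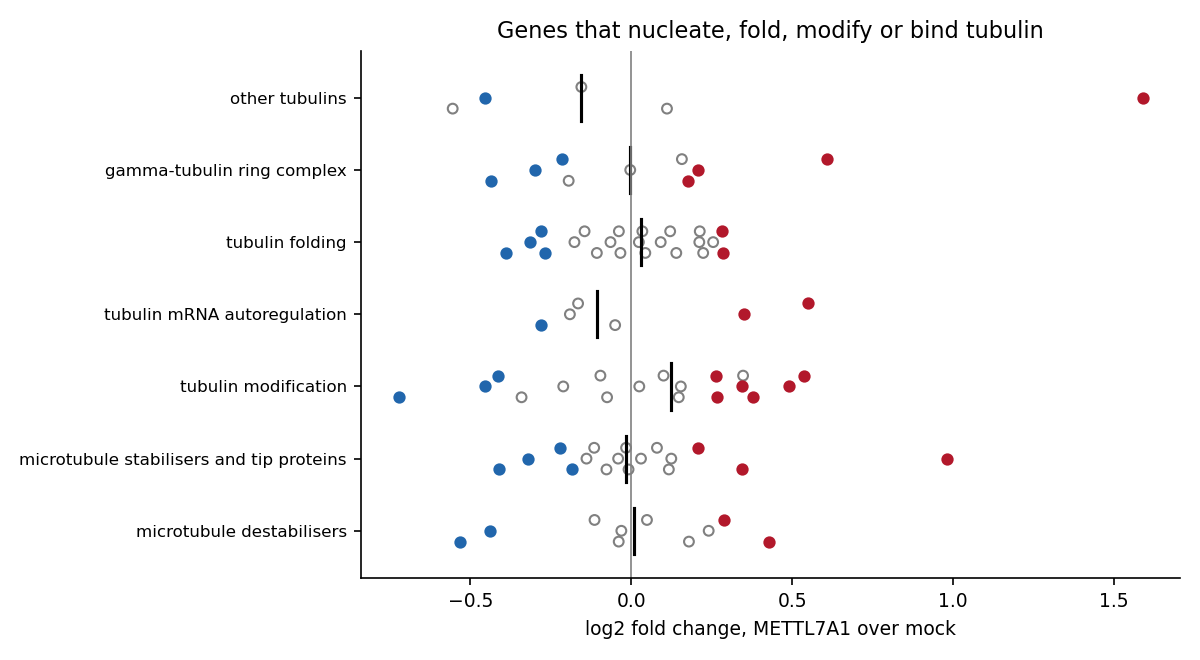
Log2 fold change of each tested gene of the tubulin and microtubule lists, METTL7A1 against mock, 1 point per gene (filled where the adjusted p was under 0.05) and a bar at each list's median. The medians lie between -0.15 and 0.12, and points fall on both sides of 0 in every list.

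The labelled cell type was checked with marker lists. All 9 mammary epithelial markers were tested, with a summed level of 2397 to 2948 cpm in METTL7A1 and 1995 to 2420 in mock libraries, and 4 of them (Krt7, Cldn3, Cldn4 and Cldn7) were higher, as were 21.1% of all genes. None of 10 neuronal markers passed the filter and 5 were at 0 in every library. Their sum was 0.323 to 0.542 cpm in METTL7A1 and 0.362 to 0.547 in mock libraries. Of 9 leukocyte and endothelial markers 1 was tested (Cd68, log2 fold change 1.23), with a sum of 13.0 to 15.5 against 5.74 to 7.41 cpm, and of 9 fibroblast markers 1 (Pdgfra, 0.47), with a sum of 24.5 to 27.5 against 18.2 to 20.6 cpm. The part of these markers in the tubulin levels was not tested.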

How the data were processed

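Stranded total RNA libraries (Ribo-Zero Plus, Illumina NovaSeq) of 3 METTL7A1 and 3 mock cultures were used, grouped by title. The authors trimmed reads with BBDuk, aligned them with STAR (2.5.3a) to mm10 and deposited raw counts per gene from featureCounts, not normalized. The deposited exon length and coordinates (1-based) are annotation. Strand and multi-mapping settings are not given in the sources used here. AY036118, inside Gm42418 on the other strand, had at least 1.36 times the counts of Gm42418, as counting by strand would give.

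The test was run in edgeR 4.0.16 (R 4.3.3) on genes reaching 1 cpm in 3 or more libraries, with TMM scaling, a quasi-likelihood test without covariate and Benjamini-Hochberg adjustment over all 13166 genes. The SE was the log2 fold change over the square root of F. Simulated on 12973 genes with 200 changed, the test made 182 calls, 13 of them false. It recovered 62.5, 95.5 and 100% at log2 changes of 0.5, 1 and 2. Far more genes were called in these data (42.1%), so these rates do not describe the power here. Coding sequences and shared stretches came from GENCODE M21 transcripts of mm10, which held 95.7% of the symbols. Members, lists and tests were chosen with earlier results of these data known. From each list at most 4 genes are named, those called with a log2 change of at least 0.5 either way, in order of p. Besides these, all members, Mettl7a1, Tubg1 and Ttc5 are named. Tube1, whose change was smaller than 0.5, is named as one of the other tubulin genes. The marker genes, the genes of overlaps and AY036118 were named after their values were seen. Alternatives were RLE and upper quartile scaling, no filter, at least 10 counts in every library, no top 20 genes, a replicate block, leaving out each library, DESeq2 1.42.0, limma 3.58.1 (voom), and an offset of the median of 40 neighbouring genes above a log2 cpm of 2. The coding ends of Tuba1a and Tuba1b are not reported here.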

Additional observations from a re-analysis of the deposited data

How the results depend on the processing

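Of the 9 tubulin genes tested, 4 were called. The count was 1 at the thresholds of the study, 3 with RLE scaling, with at least 10 counts in every library, without the 20 most abundant genes and with voom, 4 with upper quartile scaling, without a filter and with DESeq2, 5 with the neighbour offset, and 2 to 4 with 1 library left out (2 without METTL7A1 replicate 2, mock replicate 1 or mock replicate 2). Over all genes 5537 were called in the main fit, 326 at the thresholds of the study and 4140 with the neighbour offset. The other scalings, filters and tools gave 5275 to 5988. With METTL7A1 replicate 1, 2 or 3 left out, 5373, 3761 and 4555 of all genes were called. With mock replicate 1, 2 or 3 left out, 4251, 4602 and 5753 were called. Without a filter 1 of the 4 tubulin genes called was higher, Tuba1a (0.23, adjusted p = 0.0480). Tuba1a was also called without METTL7A1 replicate 1 (0.26, adjusted p = 0.0471). Tubb2b and Tubb4b kept their calls in each of these but the thresholds of the study, which Tubb4b did not meet. The neighbour offset reversed Tuba1a to -0.0818, Tubb2a to 0.0273, Tubb6 to -0.32 and Ttc5 to 0.0247. Tubb6 ranged from -0.0857 to 0.115 with 1 library left out, below 0 without METTL7A1 replicate 3 or mock replicate 3. Among the other members not called, the values with 1 library left out ranged from 0.0985 to 0.269 for Tuba1a, from -0.266 to -0.0553 for Tuba1b, from -0.267 to -0.0877 for Tubb5 and from -0.257 to -0.0431 for Tubb2a. The difference in the α share was 1.98 points per kilobase instead of 1.36. The log2 ratio of summed tubulin ranged from -0.28 to -0.10 with 1 library left out. The causes of these shifts were not tested.

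Replicate numbers are shared between the groups, but the deviations of same-numbered libraries correlated at -0.15, 0.20 and -0.37, so the numbers were not taken to pair libraries. With the replicate block 3 members and 4810 of all genes were called (4 and 5537 without it). Tuba4a and Ttc5 lost their calls, and the calls fell from 6 to 3 in the ring complex, from 6 to 3 in folding, from 7 to 4 among stabilisers, from 9 to 7 in modification and from 3 to 2 in autoregulation. With 3 libraries a group, changes of log2 0.5 were often missed in simulation. The simulation changed only 200 of 12973 genes, whereas 42.1% of genes were called in these data, so its recovery rates do not carry over. For Tubb3 no difference was detectable at this depth.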
